A study of Mus musculus with 6 samples.

Results

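To determine whether the other laminin-binding adhesion genes changed when *Itga3* was deleted, the RNA of 8 genes was followed in hair bulge (HB)-derived keratinocytes: *Itga3*, *Itgb1*, *Itga6*, *Itgb4*, *Cd151*, *Col17a1*, *Dst* and *Plec*. They were picked by symbol from a table of 22295 genes, and all 8 were found. The libraries came from 3 K19 *Itga3* WT mice, of genotype 19(Cre-ERT); mTmG, and 3 K19 *Itga3* KO mice, which carried *Itga3* fl/fl in addition, all bred on FVB. All 6 mice received tamoxifen over 4 days from the age of 6 weeks (10 mg/ml per the sample descriptions, whereas the study's methods give a lower concentration, a slightly earlier age and an added topical dose). All were then treated with 30 μg of the mutagen DMBA at 7 weeks, followed by repeated applications of 12.34 μg of the tumor promoter TPA, so no untreated skin was compared. GFP-positive keratinocytes were sorted by FACS, 1 mouse per library. Cre activity depends on the K19 promoter, which targets HB cells, and on tamoxifen, and the reporter marks cells in which Cre acted on the mTmG locus, which is a different locus from *Itga3*.

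Keratinocytes hold on to the laminins of the basement membrane through integrins, which are pairs of an α and a β chain. Integrin α3β1 (*Itga3*, *Itgb1*) sits in actin-linked adhesions, whereas integrin α6β4 (*Itga6*, *Itgb4*) is the laminin receptor of hemidesmosomes, the plaques that tie the basement membrane to the keratin network. Inside the cell α6β4 is bound by plectin (*Plec*) and by the dystonin product BPAG1e (*Dst*), both plakin linkers to keratin filaments, and next to it lies the transmembrane collagen XVII (*Col17a1*, also BP180). The tetraspanin CD151 (*Cd151*) associates with α3β1 and with α6β4. Loss of several of these proteins causes skin blistering.

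Libraries held 20578309 to 23670507 counts on genes, and each pair of libraries differed by more than counting noise. Levels below are CPM, counts scaled to a fixed library total and by TMM factors, which correct for library composition, and 3 counts correspond to 0.127 to 0.146 CPM. Each column name gives a genotype and nothing that ties it to a sample, so letters a to c name the libraries of a genotype in column order, and values per library are given in that order. KO was tested against WT with edgeR's quasi-likelihood test over 21681 genes with Benjamini-Hochberg adjustment, which is the source of each adjusted p given without a tool. Of all genes tested, 146 (0.673%) had an adjusted p below 0.05. Markers of basal and bulge keratinocytes were abundant in every library, with a summed level of 31550 to 48500 CPM in WT and 36830 to 42900 CPM in KO, led by Krt5. The summed levels of 5 endothelial (of 6 listed), 6 immune, 5 melanocyte and 6 Schwann and muscle markers stayed at or below 13.4 CPM in each library. Kdr, Cd74 and Dct were the most abundant endothelial, immune and melanocyte markers.

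*Itga3* (ENSMUSG00000001507, GRCm38 chromosome 11, 95044474 to 95076801, minus strand) encodes the integrin α3 chain and is the targeted gene. It had 371, 252.5 and 271 CPM in WT and 131, 124 and 134 CPM in KO. Every KO library lay below every WT library, and the KO libraries lay close together, with a coefficient of variation of 4.03% against 21.4% in WT. The mean fell from 298 ± 63.9 (SD, n = 3) to 129 ± 5.22 CPM (SD, n = 3), that is to 43.4% of WT. The log2 fold change was −1.20 (SE 0.13, adjusted p = 0.00283), and its 95% interval corresponds to 35.4% to 53.2% of WT. The exact two-sided permutation test gave p = 0.1, the smallest p that 3 against 3 libraries allow. The call was lost without KO a (adjusted p = 0.0934 from edgeR) and without WT c (0.130). In those fits 10 and 5 of all genes passed, against 146 with every library. The log2 fold change of *Itga3* in them was −1.21 and −1.27, and without any single library it stayed between −1.31 and −1.01. The counts cover the whole gene, so a transcript that lacks the floxed part and one from an unrecombined allele cannot be told apart. In bulk libraries, fewer cells with the RNA and less RNA per cell cannot be told apart either. The paper reports an efficient loss of the α3β1 protein from GFP-positive KO keratinocytes, by staining of back skin a week after tamoxifen. No DMBA or TPA is described for that staining, whereas the sequenced cells were taken after both. The *Itga3* RNA left in KO was thus not set against protein of the same cells and is no measure of it.

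*Itga3* was the only gene of the 8 that passed the test. This makes 1 of 8 lower, against 0.212% of all genes, and 0 of 8 higher, against 0.461% of all genes, and *Itga3* was the deleted gene. No other gene of the 8 passed in limma-voom, and DESeq2 added *Dst*, also lower. At an unadjusted p below 0.05, 3 of the 8 were lower (*Itga3*, *Dst* and *Col17a1*), against 5.97% of all genes, and none was higher. In 7 of the 8 genes the fold change was below 0, with a median log2 fold change of −0.13 over the 8 and of 8.82e-05 over all genes. In 2 of the 8, *Itga3* and *Dst*, every KO library lay below every WT library, which held for 8.23% of all genes.

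**Figure D1:**
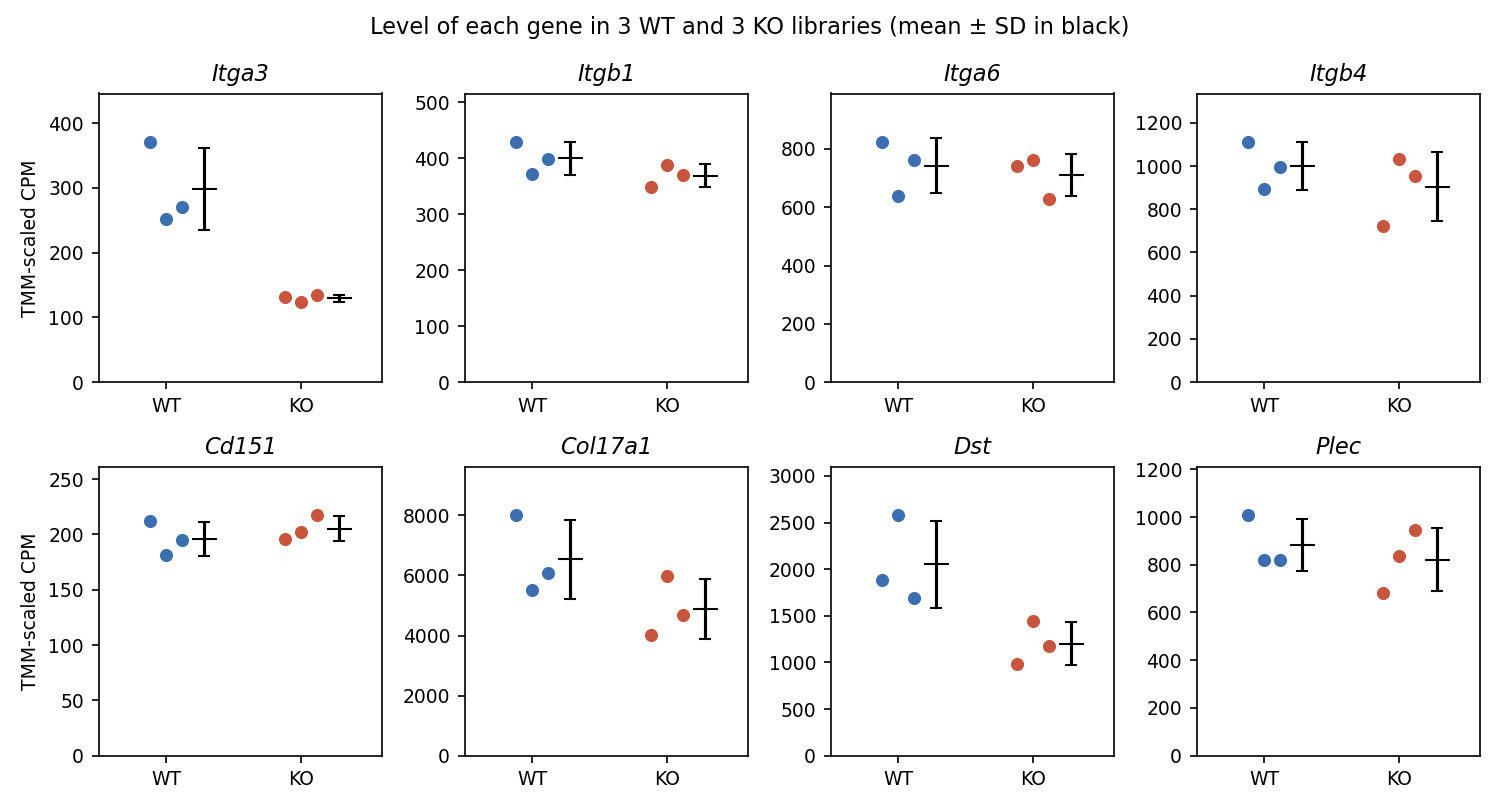
TMM-scaled CPM (vertical axes, each starting at 0) of the 8 genes in WT (blue) and KO (red) libraries, a, b and c from left to right, with the mean ± SD of each group in black. The WT and KO points of *Itga3* and *Dst* do not overlap, whereas those of the other 6 genes do.

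The transcription starts of the genes that were lowest in KO relative to WT, and of the most abundant gene, are shown with the 250 bases before each start, 5′ to 3′ on the gene's strand, from the RefSeq promoter table for GRCm38.p6. This table held 8 starts for 5 of the 8 genes (*Itga3*, *Itgb1*, *Cd151*, *Col17a1* and *Dst*). Itga3 is shown from its outermost start (chr11:95076715-95076964, minus strand), Dst from an upstream start (chr1:34011345-34011594, plus strand) and an internal start (chr1:34160010-34160259, plus strand), and Col17a1 from its single listed start (chr19:47692043-47692292, minus strand). Capitals mark the letters GGGCGG, known as a GC box.
Itga3: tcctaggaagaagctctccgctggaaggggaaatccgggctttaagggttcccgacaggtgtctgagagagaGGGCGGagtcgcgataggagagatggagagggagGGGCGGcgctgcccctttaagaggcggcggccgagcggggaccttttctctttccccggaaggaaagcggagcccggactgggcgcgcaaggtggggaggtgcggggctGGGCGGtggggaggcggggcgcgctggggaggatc
Dst, upstream start: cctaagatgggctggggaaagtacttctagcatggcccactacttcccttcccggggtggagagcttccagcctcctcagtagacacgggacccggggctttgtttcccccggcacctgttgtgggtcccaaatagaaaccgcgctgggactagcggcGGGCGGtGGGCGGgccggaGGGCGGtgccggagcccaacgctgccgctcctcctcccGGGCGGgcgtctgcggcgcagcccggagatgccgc
Dst, internal start: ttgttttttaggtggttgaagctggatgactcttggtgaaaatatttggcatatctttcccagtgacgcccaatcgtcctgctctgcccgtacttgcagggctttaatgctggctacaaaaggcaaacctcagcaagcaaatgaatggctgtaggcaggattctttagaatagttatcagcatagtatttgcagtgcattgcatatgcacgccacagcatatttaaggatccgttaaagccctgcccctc
Col17a1: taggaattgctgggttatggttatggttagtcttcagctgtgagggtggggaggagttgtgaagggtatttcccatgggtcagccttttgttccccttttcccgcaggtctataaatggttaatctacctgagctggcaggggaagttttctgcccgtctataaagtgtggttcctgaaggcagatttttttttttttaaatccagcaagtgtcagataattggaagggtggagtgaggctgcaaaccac

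Both strands were searched for 3 motifs that do not overlap one another in these windows: GGGCGG (GC box), TGANTCA (the AP-1 motif, known as the TPA response element) and CATTCC (the TEAD motif). The *Itga3* window held 3 GC boxes, which begin at −178, −144 and −35 relative to the start, and the upstream *Dst* window held 4. Among the windows not printed, that of *Itgb1* held 1, the other *Itga3* window 1, and the *Cd151* windows 2 and 0. GC boxes were thus not confined to the genes lowest in KO. The internal *Dst* window and the *Col17a1* window held none, and their GC content was 45.2% and 46.0% against 67.6% for *Itga3*. Over all 32851 windows of this length, 32.7% held a GC box. The AP-1 letters were in 0 of the 8 windows and in 6.75% of all windows. A single TEAD match stood before *Itgb1*, against 12.6% of all windows with a match. These are matches of letters within 250 bases and say nothing of binding.

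*Itgb1* (ENSMUSG00000025809, chromosome 8, 128685654 to 128733200, plus strand) encodes β1, the chain that α3 pairs with. It had 429, 371 and 397.5 CPM in WT and 348, 388 and 370 CPM in KO. The groups overlapped, with means of 399 ± 29.3 (SD, n = 3) and 369 ± 20.01 CPM (SD, n = 3). The log2 fold change was −0.11 (SE 0.10, adjusted p = 0.682), with an interval of 80.0% to 107% of WT.

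*Itga6* (ENSMUSG00000027111, chromosome 2, 71745616 to 71858416, plus strand) encodes α6, the other laminin-binding α chain of these cells. Its levels were 825, 640 and 760.5 CPM in WT and 740.5, 761 and 627 CPM in KO. WT b and KO c were the low libraries, so low values stood in both groups. Means were 742 ± 94.0 (SD, n = 3) and 710 ± 71.9 CPM (SD, n = 3), a log2 fold change of −0.06 (SE 0.12, adjusted p = 0.864). The interval, 79.9% to 115% of WT, leaves room for a small rise or a small fall.

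*Itgb4* (ENSMUSG00000020758, chromosome 11, 115974709 to 116008412, plus strand) encodes β4, which pairs with α6 alone, and lies 20.9 Mb from *Itga3*. It had 1113, 893 and 997 CPM in WT and 724.5, 1033 and 956 CPM in KO. KO a was the lowest library and the other KO libraries lay within the WT range. From 1001 ± 110 to 904 ± 160 CPM (SD, n = 3 each), the log2 fold change was −0.15 (SE 0.14, adjusted p = 0.682), with an interval of 73.4% to 111% of WT.

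*Cd151* (ENSMUSG00000025510, chromosome 7, 141467362 to 141471479, plus strand) was the only one of the 8 with a mean above WT. The tetraspanin had 212, 181 and 195 CPM in WT and 196, 203 and 217.5 CPM in KO, and the groups overlapped. Means were 196 ± 15.3 and 205 ± 11.1 CPM (SD, n = 3 each), with a log2 fold change of 0.07 (SE 0.09, adjusted p = 0.794). The interval ran from 90.9% to 121% of WT.

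*Col17a1* (ENSMUSG00000025064, chromosome 19, 47646344 to 47692094, minus strand) was the most abundant of the 8 and ranked 5 among all genes, with 0.571% of all counts. The collagen XVII gene had 8009, 5511 and 6078 CPM in WT and 4023, 5992 and 4667 CPM in KO. WT a stood highest and KO a lowest, but KO b lay above WT b, so the groups overlapped. Means were 6533 ± 1309 and 4894 ± 1004 CPM (SD, n = 3 each), or 74.9% of WT. The log2 fold change of −0.42 (SE 0.17) had an unadjusted p of 0.0323 and an adjusted p of 0.375 from edgeR and did not pass, with an interval of 57.8% to 97.2% of WT. Without WT a the log2 fold change of *Col17a1* was −0.24 (unadjusted p = 0.134 from edgeR), and without single libraries it ranged from −0.58 to −0.24.

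*Dst* (ENSMUSG00000026131, chromosome 1, 33908225 to 34308661, plus strand) encodes dystonin, whose epithelial product BPAG1e is the hemidesmosomal plakin. It had 1882, 2580 and 1694 CPM in WT and 981, 1443 and 1176 CPM in KO. Each KO library lay below each WT library, and WT b stood highest. Means were 2052 ± 466 and 1200 ± 232 CPM (SD, n = 3 each), or 58.5% of WT, and the exact permutation test gave p = 0.1, the smallest possible. The log2 fold change was −0.77 (SE 0.17) and missed the threshold with an adjusted p of 0.0708 from edgeR, with an interval of 45.1% to 75.8% of WT. The side of the threshold depended on the tool and the libraries, since *Dst* passed in DESeq2 (adjusted p = 0.00253) and in edgeR without WT a (0.0353) or without KO b (0.0495), but not in limma-voom (0.151), and the adjusted p from edgeR was 0.368 without WT c and 0.472 without KO a. The gene count does not separate the 20 annotated transcripts, so the share of the epithelial form is not known. Gm26788, which overlaps *Dst* on the opposite strand, had 313 to 804 counts, and counting used the strand.

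*Plec* (ENSMUSG00000022565, chromosome 15, 76170974 to 76232574, minus strand) encodes plectin, which binds β4 and keratin filaments. Its levels were 1008, 818 and 818.5 CPM in WT and 681, 836 and 945 CPM in KO. KO a was the lowest and WT a the highest library, and the remaining 4 lay between 818 and 945 CPM. Means were 882 ± 109 and 821 ± 132 CPM (SD, n = 3 each), a log2 fold change of −0.10 (SE 0.13, adjusted p = 0.766), with an interval of 76.1% to 114% of WT. Parp10 overlaps *Plec* on the same strand, with 463 to 701 counts.

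**Figure D2:**
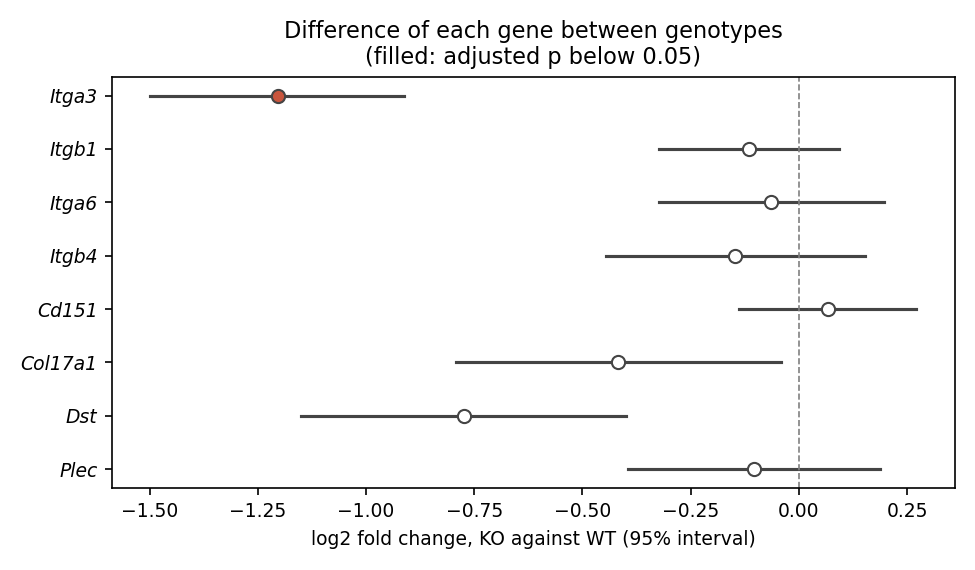
Log2 fold change of KO against WT (horizontal axis) for the 8 genes (vertical axis), with 95% intervals from edgeR and filled points for an adjusted p below 0.05. *Itga3* alone is filled, the intervals of *Dst* and *Col17a1* lie below 0, and those of the other 5 genes include 0.

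Other measures that moved with genotype are given here, and their part in the levels of *Itga3*, *Dst* and *Col17a1* was not tested. The bulge marker Cd34 fell by 0.72 on the log2 scale (adjusted p = 0.0462), from 853 ± 40.7 to 516 ± 113 CPM (SD, n = 3 each), as 1 of 6 basal and bulge markers that passed. Its adjusted p lay at or above 0.0685 in limma-voom, on genes kept by filterByExpr, on protein-coding genes, and without WT b, WT c, KO a or KO c. Of 6 suprabasal markers, led by Krt1 in each WT library and by Sbsn in each KO library, only Sbsn passed. It had 513 ± 28.5 CPM in WT and 1002 ± 28.2 CPM in KO (SD, n = 3 each). The summed level of the 6 was 1644 to 2125 CPM in WT and 2378 to 2467 CPM in KO, but without Sbsn the sums overlapped. Each other suprabasal marker overlapped between genotypes, with Krt1 at 777 ± 113 and 816 ± 79.6 CPM (SD, n = 3 each). Of the 6, 4 were higher and 2 lower in KO. Of 7 fibroblast markers, 0 passed in edgeR or limma-voom, and 6 had an unadjusted p below 0.05 in edgeR, against 11.5% of all genes, with 4 of the 7 lower and 3 higher in KO. In DESeq2, Col1a2 (adjusted p = 0.00073) and Postn (0.0116) passed as lower and Dcn (0.0161) as higher. Their summed level of 3689 to 7674 CPM in WT and 2966 to 3636 CPM in KO was almost all Postn, with 3512, 7558 and 5948 CPM in WT and 3119, 3555 and 2886 CPM in KO. Col1a1 had 123, 40.4 and 92.9 CPM in WT and 26.9, 46.2 and 39.3 CPM in KO, and Col1a2 had 53.0, 72.9 and 59.8 CPM in WT and 15.3, 31.8 and 34.9 CPM in KO, the latter without overlap. The other defining markers were low, with Dcn, Pdgfra and Col3a1 at or below 5.44 CPM in each library (Col3a1 at 0 counts in each WT library and up to 29 counts in KO) and Lum at 3 counts or fewer. Postn and *Dst* were both highest in WT b.

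To compare genes with one another, CPM were divided by the summed length of annotated exons. On this scale *Col17a1* stood far above the others, with 1087 ± 218 CPM per kb in WT and 814 ± 167 CPM per kb in KO (SD, n = 3 each). It was followed by *Itgb4* (143 ± 15.7 and 129 ± 22.9 CPM per kb in WT and KO), *Itgb1* (97.8 ± 7.18 and 90.4 ± 4.90), *Itga6* (82.2 ± 10.4 and 78.6 ± 7.97) and *Cd151* (71.5 ± 5.57 and 74.9 ± 4.04). The lowest 3 were *Plec* (48.7 ± 6.04 and 45.3 ± 7.31 CPM per kb), *Dst* (49.9 ± 11.3 and 29.2 ± 5.63) and *Itga3* (52.2 ± 11.2 and 22.7 ± 0.91). Libraries of neighbours in this order overlapped between *Itga6* and *Cd151* in both genotypes, and in WT also between *Itgb1* and *Itga6* and among the lowest 3. In KO the lowest 3 did not overlap, so *Itga3* moved from rank 6 of the 8 in WT to rank 8. The order depends on the length used: with the longest transcript in place of all exons, 2 of 8 genes kept their rank and *Itga6* moved up to rank 2. *Dst* is the extreme case, since its exons sum to 41155 bases, while 1 annotated transcript that starts near the internal promoter has 8788 bases, and dividing by the latter would give 233.5 CPM per kb in WT and 137 CPM per kb in KO.

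Whether *Itga6* made up for the lost *Itga3* RNA was asked per length. *Itga3* dropped by 29.57 CPM per kb, while the mean of *Itga6* differed by −3.57 CPM per kb (82.2 in WT against 78.6 in KO, exact permutation p = 0.6, n = 3 each). To hold the sum of both at its WT value, *Itga6* would have had to stand at 136% of WT with exon lengths, or at 120% with longest transcripts, and the upper bound of its interval was 115%. Both marks come from group means and carry no interval. The log2 fold change of *Itga6* was 0.027 (SE 0.12) without WT a and 0.017 (SE 0.13) without KO c. Both values were above the −0.06 (SE 0.12) with every library, so the bound of 115% does not hold for these fits. Their own upper bounds were not computed, so the 120% mark cannot be placed outside them. *Itga7*, which encodes the remaining laminin-binding α chain and is mainly a muscle gene, added 0.33 ± 0.13 CPM per kb in WT and 0.31 ± 0.08 CPM per kb in KO (SD, n = 3 each). The sum of these 3 laminin-binding α chains was 157, 115.5 and 132 CPM per kb in WT and 105, 106 and 93.4 CPM per kb in KO. Each KO library was thus below each WT library, with means of 135 ± 20.7 and 102 ± 7.16 CPM per kb (exact permutation p = 0.1, the smallest possible with n = 3 per group).

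Within this sum *Itga3* held 41.5%, 38.3% and 35.9% in WT and 21.8%, 20.4% and 25.1% in KO. The groups did not overlap, with means of 38.6% ± 2.81 and 22.4% ± 2.43 (SD, n = 3 each) and a difference of −16.15 percentage points (exact permutation p = 0.1). The share of *Itga6* was 61.2% ± 2.70 in WT and 77.3% ± 2.52 in KO (SD, n = 3 each), while its level did not rise. With longest transcripts the share of *Itga3* was 26.1% ± 2.29 in WT and 14.0% ± 1.68 in KO (SD, n = 3 each). All these values count any *Itga3* transcript that lacks the floxed part, so they are shares of RNA and not of the α3 protein. Over all 12 α chains that pair with β1 or β4, the sum was 165 ± 21.4 CPM per kb in WT and 129 ± 6.78 CPM per kb in KO (exact permutation p = 0.1, n = 3 each). The 11 chains without *Itga3* had 122, 101 and 116 CPM per kb in WT and 106, 114 and 98.7 CPM per kb in KO. These values overlapped, and the difference of −6.52 CPM per kb had an exact permutation p of 0.4.

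**Figure D3:**
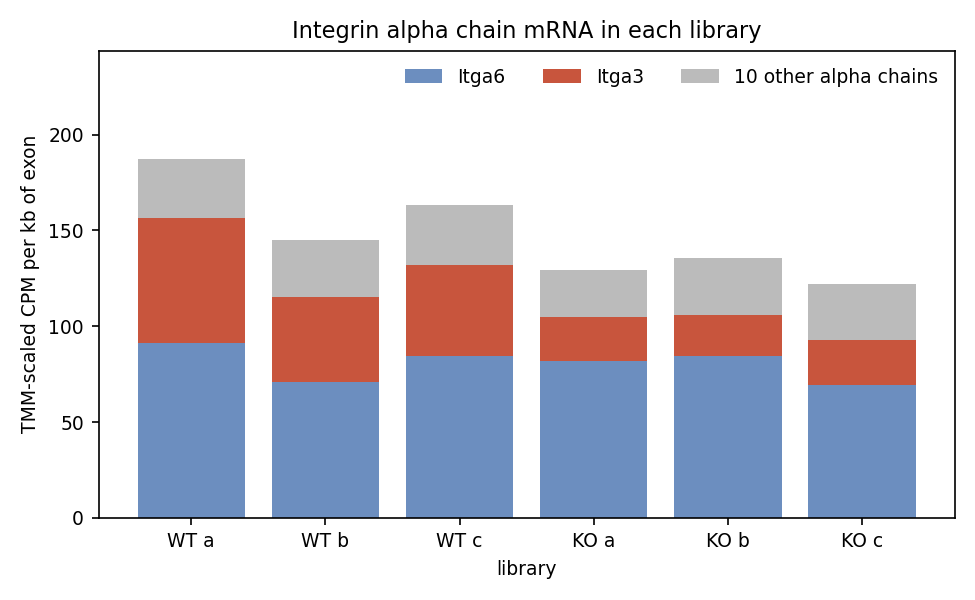
Stacked TMM-scaled CPM per kb of exon (vertical axis, from 0) for Itga6 (blue), Itga3 (red) and the 10 other α chains (grey) in each of the 6 libraries (horizontal axis). The red segment is 44.2 to 65.03 CPM per kb in WT and 21.7 to 23.4 CPM per kb in KO, and the blue segment covers 69.5 to 91.4 CPM per kb over both genotypes.

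Ratios of counts between genes of the same library do not depend on the scaling between libraries, and 7 of them were compared by exact two-sided permutation tests, with p-values adjusted over the 7. The log2 ratio of *Itga3* to its partner *Itgb1* was −0.21, −0.56 and −0.55 in WT and −1.41, −1.65 and −1.47 in KO. The groups did not overlap, with means of −0.44 ± 0.20 and −1.51 ± 0.12 (SD, n = 3 each; permutation p = 0.1, adjusted p = 0.14). The log2 ratio of *Itga6* to *Itga3* was 1.15, 1.34 and 1.49 in WT and 2.50, 2.62 and 2.23 in KO, again without overlap. That of *Cd151* to *Itga3* lay between −0.81 and −0.48 in WT and between 0.58 and 0.71 in KO, so *Cd151* counts were below those of *Itga3* in each WT library and above them in each KO library.

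Among the hemidesmosome genes, the log2 ratio of *Itga6* to *Itgb4*, the chains of the α6β4 receptor, was −0.43, −0.48 and −0.39 in WT and 0.03, −0.44 and −0.61 in KO. KO a alone stood apart, and the groups overlapped (−0.43 ± 0.04 and −0.34 ± 0.33, SD, n = 3 each; permutation p = 0.9). The ratio of *Itgb4* to *Itgb1* overlapped as well (1.32 ± 0.05 in WT and 1.28 ± 0.19 in KO, SD, n = 3 each; permutation p = 0.9). In contrast, *Dst* relative to the other plakin *Plec* was 0.90, 1.66 and 1.05 in WT and 0.53, 0.79 and 0.32 in KO on the log2 scale, a difference of −0.66 without overlap, or of −0.43 without WT b. *Col17a1* relative to *Itgb4* was 2.85, 2.63 and 2.61 in WT and 2.47, 2.54 and 2.29 in KO on the same scale, a difference of −0.26 without overlap, although the levels of *Col17a1* did overlap. Each ratio without overlap, 5 of the 7, had p = 0.1, the smallest possible in the exact permutation test, and an adjusted p of 0.14. That adjusted value is set by the number of ratios at this floor. The ratios of *Itga3* to *Itgb1*, *Itga6* to *Itga3* and *Cd151* to *Itga3* contain the deleted gene. Their separation repeats its fall. Likewise the ratio of *Dst* to *Plec* contains *Dst*, whose levels did not overlap either, beside a log2 fold change of −0.10 for *Plec*. Only *Col17a1* to *Itgb4* separated while the levels of both of its genes overlapped. How often ratios of other gene pairs separate was not computed, so the 5 of 7 have no background share.

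**Figure D4:**
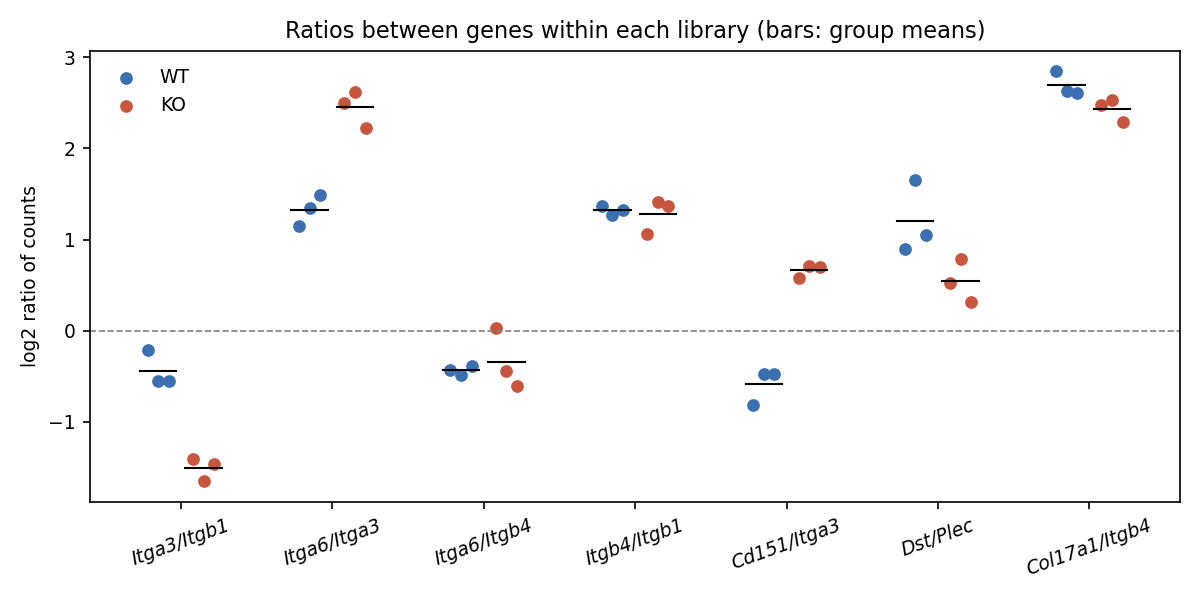
Log2 ratio of counts (vertical axis) for 7 pairs of genes (horizontal axis) in each WT (blue) and KO (red) library, with bars at the group means. Only Itga6/Itgb4 and Itgb4/Itgb1 overlap between genotypes, and KO a is the single library with a ratio of *Itga6* to *Itgb4* above 0 on the log2 scale.

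How alike the 8 genes were across libraries was described by the root mean square difference of their log2 profiles over the 6 libraries, each centred on its own mean. The closest pairs were *Itgb4* and *Plec* (0.10), *Itgb1* and *Cd151* (0.10) and *Itgb1* and *Itga6* (0.11). *Dst* was nearest to *Col17a1* (0.35). *Itga3* was nearest to *Dst* (0.41) and farthest from *Cd151* (0.64). Among 8573 genes with a mean log2 CPM above 4, those nearest to *Itga3* were Senp3 (0.27), Ctgf (0.27), Tmtc1 (0.29), Pygl (0.29) and Pm20d1 (0.30). Ctgf, which encodes the matricellular protein CCN2, had 797, 582 and 795 CPM in WT and 238, 280 and 218 CPM in KO. Senp3, a SUMO protease gene on chromosome 11 like *Itga3*, had 189, 177 and 156 CPM in WT and 110, 100 and 102 CPM in KO. All 5 were lower in KO, which follows from choosing them for a profile like that of *Itga3*, so their fold changes are not tested here.

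A further 52 genes of the same adhesion system, in 8 lists, were examined, of which 51 had counts and were tested. The test was passed by 1 gene in each direction, Itga4 (lower) and Lamb1 (higher). Of all genes, 0.212% passed as lower and 0.461% as higher. An unadjusted p below 0.05 was found for 9 of the 51, and for 11.5% of all genes. Neither Itga4 nor Lamb1 passed in limma-voom, on genes kept by filterByExpr, on protein-coding genes, or without WT c, KO a or KO c. DESeq2 called 3 genes, Itga4, Lamb1 and Fras1.

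Of 10 other α chains, Itga4, which encodes the α4 chain of a fibronectin and VCAM-1 receptor, fell by 1.64 on the log2 scale (SE 0.25, adjusted p = 0.0187). It was a rare transcript with 21 to 81 counts per library, at 3.12, 3.71 and 3.04 CPM in WT and 0.94, 1.22 and 1.02 CPM in KO. Its adjusted p was 0.0647 in limma-voom, 0.0502 on genes kept by filterByExpr and 0.244 without WT c. Itga2, the α2 chain of a collagen receptor, had 46.7 ± 6.13 CPM in WT and 36.0 ± 6.05 CPM in KO (SD, n = 3 each; adjusted p = 0.308). Itga9 and Itga11 had at most 4 counts in any library, and the median log2 fold change was −0.09 over the 10 chains and −0.09 over the other 8.

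Among 7 laminin chains, the ligands of these receptors, Lamb1 rose from 38.7, 37.8 and 34.7 CPM in WT to 59.3, 52.2 and 72.6 CPM in KO. Lamb1 encodes the β1 chain of laminin-511, a ligand of α3β1 and α6β4, and each KO library lay above each WT library. The log2 fold change was 0.73 (SE 0.12, adjusted p = 0.0255), with an adjusted p of 0.105 in limma-voom, 0.116 on genes kept by filterByExpr and 0.368 without WT c. Lamc1, the γ1 chain of the same laminin, had 86.7 ± 2.61 CPM in WT and 112 ± 16.15 CPM in KO (SD, n = 3 each), without overlap but with an adjusted p of 0.159. Lama5, the α5 chain that joins them, stood at a log2 fold change of 0.01 (adjusted p = 0.999). Lama3 and Lamb3, which encode chains of laminin-332, the main ligand in the epidermal basement membrane, had log2 fold changes of −0.16 (adjusted p = 0.669) and −0.35 (adjusted p = 0.341). The median over the 7 chains was 0.01.

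Of 5 genes of the anchoring fibrils and other basement membrane anchors, 0 passed in edgeR and 2 had an unadjusted p below 0.05. Fras1, which encodes an extracellular matrix protein of the basement membrane, had 22.0, 16.95 and 19.0 CPM in WT and 31.3, 25.75 and 40.9 CPM in KO. The groups did not overlap, and the log2 fold change of 0.76 (SE 0.17) had an adjusted p of 0.0708 from edgeR and passed in DESeq2 (0.00496). Col7a1, the collagen VII of the anchoring fibrils, had 926, 862 and 786 CPM in WT and 556, 763 and 634.5 CPM in KO, again without overlap, with an adjusted p of 0.203. The median log2 fold change of this list was −0.10.

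In each of the remaining lists 0 genes passed in edgeR, limma-voom or DESeq2, and 0 had an unadjusted p below 0.05 in edgeR. They were 6 other laminin receptors (median log2 fold change −0.12), 7 other tetraspanins (0.02), 4 other plakins (−0.06), 3 basal keratins (−0.03) and 9 activators and adaptors of β1 (−0.03). The smallest p-values of these lists belonged to Bcam (log2 fold change −0.20, adjusted p = 0.534) and Sdc1 (0.20, adjusted p = 0.589) among the receptors, and to Tspan4 (−0.46, adjusted p = 0.474) and Tspan14 (0.17, adjusted p = 0.498) among the tetraspanins. Evpl and Ppl, the envoplakin and periplakin genes, had log2 fold changes of 0.15 (adjusted p = 0.604) and −0.29 (adjusted p = 0.671), the latter 0.09 without WT b. Krt14 and Krt15, keratins of the basal layer and of the bulge, had log2 fold changes of 0.18 (adjusted p = 0.647) and −0.21 (adjusted p = 0.682). Fermt1, which encodes the epithelial integrin activator kindlin-1, stood at −0.20 (adjusted p = 0.466) and Tln1, the talin gene, at −0.16 (adjusted p = 0.671).

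**Figure D5:**
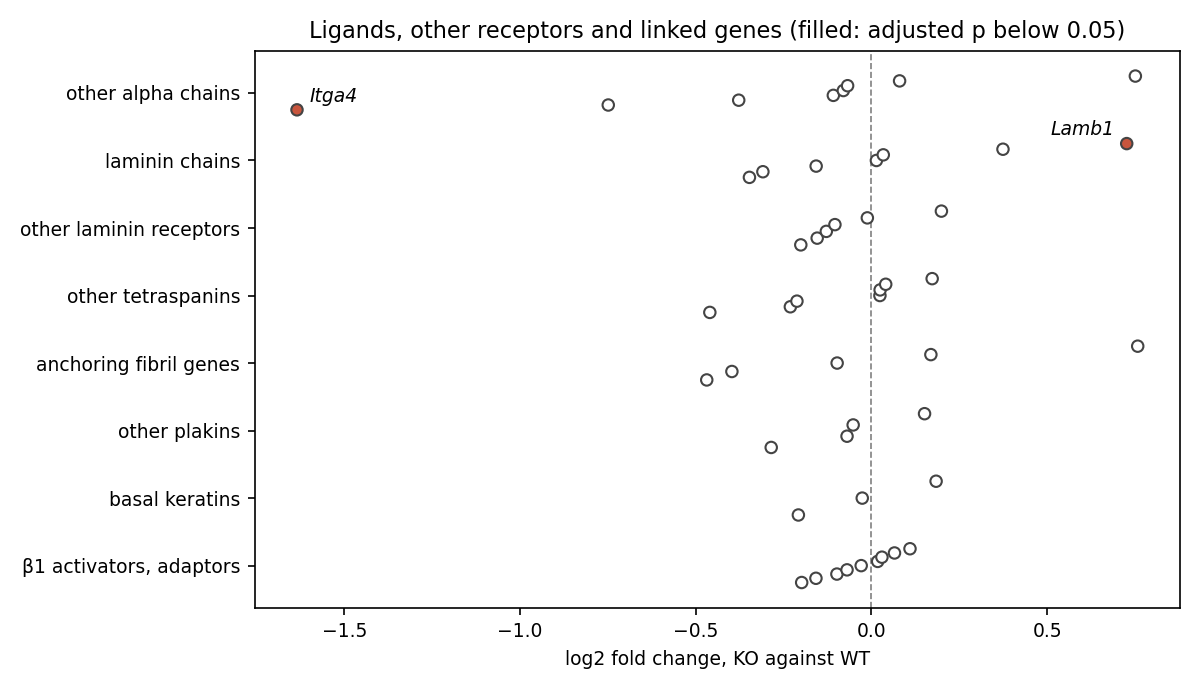
Log2 fold change of KO against WT (horizontal axis) for 49 linked genes with at least 10 counts in a library, by list (vertical axis), with small vertical offsets to separate the points. The filled points, Itga4 at −1.64 and Lamb1 at 0.73, have an adjusted p below 0.05.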

How the data were processed

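RNA was measured in 6 libraries of sorted keratinocytes, 3 per genotype. Poly(A) libraries that keep the strand were sequenced by the authors as single reads of 65 bases and aligned to GRCm38 with TopHat2 2.1.0, Bowtie 1.1 and the gene models of Ensembl 77. Reads with a unique position were then counted by strand with a script modelled on HTSeq. The deposited counts per gene were not normalized. Genes with a count above 0 were tested with edgeR 4.0.16 in R 4.3.3 (TMM factors, glmQLFit and glmQLFTest, without covariates). Single values were compared by exact two-sided permutation tests. Reads carry no molecular identifiers, so floors cover counting error only. Exon and transcript lengths came from GENCODE M21, promoter windows from RefSeq for GRCm38.p6, and gene coordinates from the count table. The annotation differs from the table's coordinates for *Cd151* alone among the 8 genes.

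The genes and lists were chosen with earlier results of these data known. Named were the 8 genes, linked genes that passed, the 2 with the smallest p of each linked list, the 5 genes most like *Itga3*, and the most abundant gene of each marker list, except for results left out here. Lama3, Lamb3, Lama5, Itga7, Itga9, Itga11, Cd34, Sbsn, Col1a1, Col1a2, Col3a1, Dcn, Pdgfra, Lum and the overlapping genes were named after their values were seen. Alternatives were limma-voom (limma 3.58.1), DESeq2 1.42.0, library size only, filterByExpr (13811 genes), protein-coding genes (16636 genes), longest transcripts, and omission of each library. The code was tested on simulated data.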

Additional observations from a re-analysis of the deposited data

How the results depend on the processing

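No paired analysis was possible because the count columns carry the genotype but no replicate number. The number of genes past the threshold depended strongly on the setting, with 146 in edgeR, 24 in limma-voom, 546 in DESeq2, 15 with filterByExpr, 25 on protein-coding genes and 5 to 521 with a library left out. Of the 8 genes, 1 passed in edgeR, 2 in DESeq2 and 0 to 2 with a library left out (0 without WT c or KO a, and 2 without WT a or KO b). Of the linked genes, 2 passed in edgeR, 0 in limma-voom, with filterByExpr and on protein-coding genes, and 0 to 4 with a library left out. The log2 fold change of *Itga3* stayed between −1.31 and −1.01 without single libraries and between −1.21 and −1.18 in the other tools and filters. Among the 8 genes and the 7 ratios, signs turned for 4 values near 0 when a library was left out: *Itga6* ranged from −0.16 to 0.027, *Plec* from −0.22 to 0.0145, the log2 ratio of *Itga6* to *Itgb4* differed by −0.090 to 0.23 between genotypes, and that of *Itgb4* to *Itgb1* by −0.11 to 0.068. The causes were not tested. With longest transcripts 2 of 8 genes kept their rank by level. Depth did not limit the 8 genes, whose lowest count was 2637, but it limits Itga4 with its 21 to 81 counts.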
